A study of Mus musculus with 4 samples.

Results

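Bone morphogenetic proteins (BMPs) are secreted ligands that bind pairs of type I and type II receptor kinases on the cell surface. The receptors phosphorylate Smad1, Smad5 and Smad9, which enter the nucleus with Smad4 and switch on genes such as the Id family and the inhibitory Smads, and the latter feed back on the receptors. Noggin and chordin bind the ligands outside the cell and keep them from the receptors. In the aorta-gonad-mesonephros region (AGM), the embryonic site where blood stem cells arise, Bmp4 is known from the mesenchyme beneath the dorsal aorta, and BMP signalling is known to take part in the emergence and maturation of those cells.

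The 10 genes described here were the BMP ligands Bmp2, Bmp4 and Bmp7, the secreted antagonists and modulators Nog, Chrd and Bmper, the inhibitory Smads Smad6 and Smad7, and the target genes Id1 and Id3. They were taken by gene name from the 49997 genes of the count tables, and all 10 passed the filter on low counts that left 19837 genes for testing. The libraries came from AGM explants of C57BL/6J mouse embryos, cultured on a filter for 48 hours, 2 untreated and 2 exposed throughout to 5 µM CCCP, which carries protons across membranes and dissipates the mitochondrial membrane potential. The medium of both groups held hydrocortisone. The protocol names embryonic stages E10.5 and E11.5, the series design only E10.5, and no label says how many embryos went into a library or whether the libraries were separate cultures. The p-values therefore measure the spread between these libraries, which may be technical.

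The labels give the cell type as stem cells and the design speaks of sorted c-kit+ cells, while the extraction protocol speaks of whole explants. Ptprc, the pan-leukocyte antigen CD45, stood at 6.85 and 6.82 CPM (read counts scaled to library size) untreated and at 3.65 and 3.39 CPM with CCCP. The 6 haematopoietic markers that include it summed to 55.4 to 57.7 CPM, but they did not move together. For 2 of the 6 (Ptprc and Spn) both CCCP levels lay below both untreated ones, against 24.8% of all genes. They lay above for 2 (Laptm5 and Coro1a), against 24% of all genes. A further 6 erythroid markers summed to 846 to 2266 CPM, so red cell transcripts were abundant too. The mesenchymal collagen gene Col3a1 stood at 1306 to 2303 CPM and the neuronal tubulin gene Tubb3 at 369 to 506 CPM. Transcripts of non-blood cells were thus abundant in every library. The libraries held from 37360968 to 48827826 counted reads, and replicate 1 was the deeper one in each group. The summed level of 8 hepatic marker genes was 1362 and 811 CPM untreated and 6.26 and 65.2 CPM with CCCP, with all 8 lower in both CCCP libraries. Its part in the results below was not tested. In bulk samples, fewer cells of a type and less RNA per cell cannot be told apart.

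None of the 10 genes passed the test between CCCP and untreated explants. Over all genes, 0 of 19837 (0%) passed an adjusted p of 0.05 in edgeR's quasi-likelihood fit, so the count of 0 among the 10 is what the whole table gave. At an unadjusted p under 0.05 there were also 0 of the 10, while 5.45% of all genes passed that mark as higher and 9.16% as lower in CCCP. DESeq2 called 594 genes, 3.32% of those with an adjusted p-value, and also 0 of the 10. For Nog, Smad6, Id1 and Id3 both CCCP levels exceeded both untreated levels (4 of 10, against 24% of all genes), and below them for 0 of 10 (against 24.8% of all genes). Point estimates for the 10 genes lay between -0.27 (Bmper) and 0.37 (Id3) on the log2 scale, with a median of 0.04, against -0.01 for all genes tested.

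**Figure D1:**
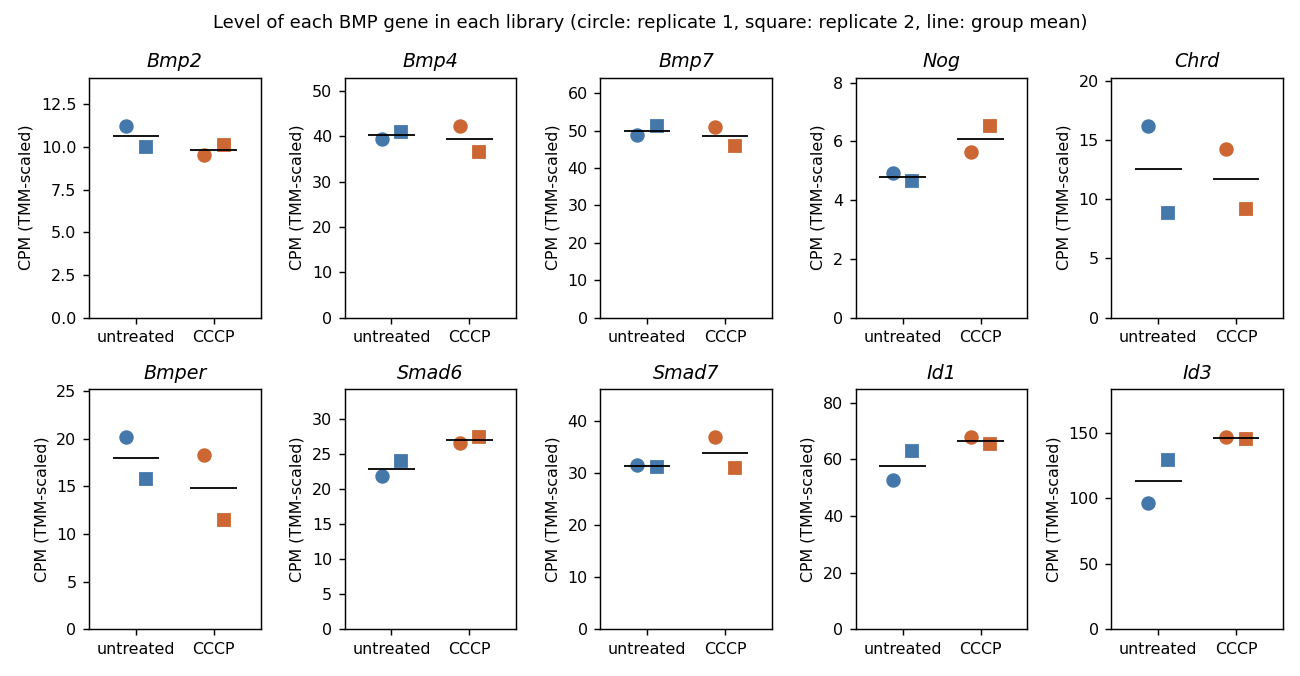
Level of each of the 10 genes in CPM (vertical axes, from 0) in the 2 untreated and 2 CCCP libraries, with circles for replicate 1, squares for replicate 2 and a line at each group mean. The groups do not overlap for Nog, Smad6, Id1 and Id3, and Chrd and Bmper differ more between replicate numbers than between groups.

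The genes spanned a wide range of levels per length, given here as RPKM (reads per kilobase of exon, scaled to library size as CPM is). Id3 had the highest level, at 101 to 154 RPKM over the 4 libraries, above 98.3% of the genes tested, followed by Id1 at 45.5 to 58.4 RPKM. Next came Bmp4 at 17.8 to 20.6 RPKM and Bmp7 at 12.5 to 14.0 RPKM. These 4 ranges do not overlap. Smad6 (7.30 to 9.15 RPKM) and Smad7 (6.96 to 8.28 RPKM) overlapped each other. Bmper (3.01 to 5.29 RPKM), Bmp2 (2.67 to 3.15 RPKM) and Chrd (1.70 to 3.11 RPKM) also overlapped. Nog stood lowest, at 1.21 to 1.70 RPKM, but its level is uncertain. The files list its exons on chromosome 11 and again on an alternate contig, and the deposited length of 3844 bases adds both copies. With the 1922 bases of a single copy its range was 2.42 to 3.40 RPKM, and the counting program by default leaves out reads aligned to several places.

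**Figure D2:**
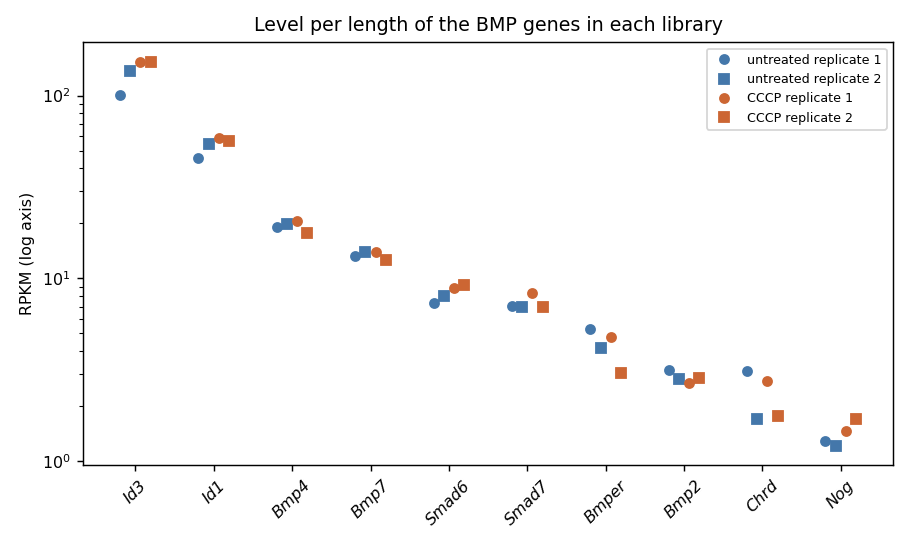
Level per length of the 10 genes in RPKM on a log axis, ordered by their mean over the 4 libraries, with untreated libraries in blue and CCCP libraries in orange. The order runs from Id3, at 101 RPKM or more, to Nog, at 1.70 RPKM or less.

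The mean levels of Bmp4 and Bmp7 differed between the groups by less than the spread of their replicates. Bmp4 (mm10, chr14:46383525-46390669, minus strand), the ligand best known from the AGM, stood at 39.4 and 41.0 CPM in untreated replicates 1 and 2 and at 42.3 and 36.6 CPM in CCCP replicates 1 and 2. The CCCP libraries thus lay on either side of both untreated ones. Its means were 40.2 ± 1.15 and 39.5 ± 4.05 CPM (SD, n = 2 in each group), and the fitted log2 fold change was -0.03 ± 0.13 (SE; edgeR adjusted p = 0.941). The 95% interval of its fold ran from 0.786 to 1.23. Bmp7 (chr2:172868012-172940321, minus strand), a ligand also needed in kidney development, stood at 48.8 and 51.4 CPM untreated and at 51.1 and 46.0 CPM with CCCP. Its groups overlapped too, and its fold of 0.970 had an interval from 0.791 to 1.19 (edgeR adjusted p = 0.887). The direction of Bmp4 and Bmp7 depended on single libraries: without CCCP replicate 2 their log2 fold changes were 0.08 and 0.04, and without untreated replicate 2 they were 0.04 and 0.03. Bmp4 shares 84 exon bases with Gm15217, a predicted gene on the opposite strand, and the counts did not use strand.

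Bmp2 (chr2:133552159-133562896, plus strand), a ligand close in sequence to Bmp4, was counted with 367 to 563 reads per library. Its level was 11.2 and 10.0 CPM untreated, against 9.52 and 10.1 CPM with CCCP. Untreated replicate 1 stood highest, and untreated replicate 2 lay between the CCCP libraries. The fitted change was -0.11 ± 0.19 on the log2 scale (SE; edgeR adjusted p = 0.807), and the fold interval ran from 0.666 to 1.28. That interval is wider than those of Bmp4 and Bmp7, which are counted with more reads.

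Among the secreted antagonists, Chrd and Bmper differed between replicate numbers in both groups. Chrd (chr16:20731425-20742384, plus strand) encodes chordin, which holds BMP dimers until proteases of the Bmp1 and tolloid family cleave it. It stood at 16.2 CPM in untreated replicate 1 and 8.85 CPM in untreated replicate 2, and at 14.2 and 9.18 CPM in CCCP replicates 1 and 2. Replicate 1 was thus 1.83-fold higher than replicate 2 among untreated libraries and 1.55-fold higher among CCCP libraries. The group means were 12.5 ± 5.21 and 11.7 ± 3.58 CPM (SD, n = 2). The fitted log2 change was -0.10 with a 95% interval from -0.96 to 0.76 (edgeR adjusted p = 0.916). Its direction turned on which library was used: it gave 0.42 when untreated replicate 1 was left out and -0.43 when untreated replicate 2 was. Leaving out CCCP replicate 2 gave 0.19, and leaving out CCCP replicate 1 gave -0.45. Thpo, on the opposite strand, overlaps 154 of the exon bases of Chrd.

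Bmper (chr9:23223076-23485215, plus strand) encodes a chordin-like protein that modulates BMP activity around endothelial cells. It stood at 20.1 and 15.8 CPM in untreated replicates 1 and 2 and at 18.3 and 11.47 CPM in CCCP replicates 1 and 2. Replicate 1 was again higher in each group, by 1.27-fold and 1.59-fold. The log2 fold change of -0.27, the lowest of the 10, had an SE of 0.27 (edgeR adjusted p = 0.651), and it was 0.03 without CCCP replicate 2, -0.64 without CCCP replicate 1 and -0.08 without untreated replicate 1. The summed level of 7 mesonephros and gonad markers also went with the number, at 213 and 201 CPM in the replicates 1 and 138 and 132 CPM in the replicates 2, and all 7 were detected. That of 8 mesenchymal markers was 4113 and 3407 CPM in the replicates 1 and 2542 and 2807 CPM in the replicates 2, and was carried mainly by Col3a1 and Col1a1. Between the groups, the mesenchymal markers did not all go the same way. Of the 8 mesenchymal markers, 1 was higher in CCCP without overlap, against 24% of all genes. This was Twist1, at 103 and 106 CPM in the untreated libraries and at 139 and 141 CPM with CCCP. Another 3 (Dcn, Lum and Postn) were lower without overlap, against 24.8% of all genes. Not every marker followed its sum over the replicate numbers: of the mesonephros and gonad markers, Cdh16 was lowest in untreated replicate 1, at 2.78 CPM. The part of these markers in the levels of Chrd and Bmper was not tested.

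Nog (chr11:89300638-89302559, minus strand) encodes noggin, which covers the receptor-binding faces of the ligands. It stood at 4.93 and 4.65 CPM untreated and at 5.65 and 6.53 CPM with CCCP, on 174 to 274 reads. The groups did not overlap. Its log2 fold change of 0.34 had a standard error of 0.24 and a 95% interval from -0.24 to 0.92 (edgeR adjusted p = 0.526), so the difference was within the error of the fit. Noggin and chordin are known products of the notochord. The summed level of 5 notochord and floor plate markers was 8.03 and 35.5 CPM untreated and 13.2 and 15.9 CPM with CCCP. Most of that sum was Shh, at 4.08 and 25.8 CPM untreated and 9.48 and 11.6 CPM with CCCP. Noto, a notochord transcription factor gene, had 0 counts in all 4 libraries. The 4 markers that passed the filter had negative log2 fold changes, as did 10086 of all 19837 genes tested. Of these 4, 1 (Foxa2) was lower in CCCP without overlap, against 24.8% of all genes. Their part in the levels of Nog and Chrd was not tested.

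Per length, the 3 ligands summed to 33.1 to 37.1 RPKM in the 4 libraries and the 3 antagonists to 6.47 to 9.69 RPKM. The ligand sum was highest in CCCP replicate 1 and lowest in CCCP replicate 2, so the groups overlapped. The antagonist sum was higher in both replicates 1, at 9.69 and 8.996 RPKM, than in both replicates 2, at 7.06 and 6.47 RPKM. These sums use the deposited length of Nog.

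Inside the cell, Smad6 and Smad7 block the receptor-activated Smads, Smad6 mainly in BMP signalling and Smad7 in BMP and TGF-β signalling alike. Smad6 (chr9:63953076-64022085, minus strand) stood at 21.9 and 24.0 CPM untreated and at 26.6 and 27.4 CPM with CCCP. The groups did not overlap. Its means were 22.9 ± 1.49 and 27.0 ± 0.587 CPM (SD, n = 2), and the fitted log2 change was 0.24 ± 0.14 (SE; edgeR adjusted p = 0.476). Smad7 (chromosome 18, 75367365 to 75395935, plus strand) stood at 31.5 and 31.1 CPM untreated and at 36.8 and 30.9 CPM with CCCP. Here CCCP replicate 1 alone stood apart from the other 3 libraries. Its log2 fold change was 0.11 (edgeR adjusted p = 0.729), and -0.01 without CCCP replicate 1. Gm41776, on the opposite strand, overlaps 163 of its exon bases.

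The targets Id1 and Id3 encode inhibitors of DNA binding, proteins that tie up basic helix-loop-helix factors and hold back differentiation. Id3 (chr4:136143822-136145392, plus strand) had the highest fold change of the 10. It stood at 96.3 and 129 CPM untreated and at 146 and 146 CPM with CCCP, so the untreated libraries differed from each other far more than the CCCP libraries did. Its means were 113 ± 23.4 and 146 ± 0.653 CPM (SD, n = 2). The log2 fold change of 0.37 had a standard error of 0.16, a 95% interval from -0.02 to 0.77 and an unadjusted p of 0.061 (edgeR adjusted p = 0.359). Between libraries of the same number the fold was 1.52 for replicate 1 and 1.12 for replicate 2. Leaving out untreated replicate 1 gave a log2 fold change of 0.18, and leaving out untreated replicate 2 gave 0.63.

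Id1 (chr2:152736251-152737410, plus strand) showed the same arrangement on a smaller scale. It stood at 52.8 and 62.8 CPM untreated and at 67.8 and 65.4 CPM with CCCP, with untreated replicate 1 again the lowest. Its means were 57.8 ± 7.07 and 66.6 ± 1.66 CPM (SD, n = 2), and the fitted log2 change was 0.20 ± 0.13 (SE) with a 95% interval from -0.11 to 0.52 (edgeR adjusted p = 0.496). Leaving out untreated replicate 1 gave 0.09, and leaving out untreated replicate 2 gave 0.37.

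Exon length moved with these values. Across all genes tested, the log2 fold change was lower for genes with longer exons (Spearman's rho -0.35, across genes, which are not independent replicates). Id3 and Id1 have short exons, at 953 and 1160 bases. Genes within 0.1 log2 units of the length of Id3 had a median log2 fold change of 0.26, and those near Id1 had 0.18, against 0.37 and 0.20 for the genes themselves. When the length trend was removed from each library, Id3 stood at 0.19 (edgeR adjusted p = 0.560) and Id1 at 0.03 (edgeR adjusted p = 0.934). Smad6 stood at 0.18 and Nog at 0.35 in that fit, while Bmp4, at 2059 bases, moved from -0.03 to -0.14. Genes of the length of Bmp4 had a median of 0.15. For Nog the fit used the deposited 3844 bases, which add both copies. Genes of that length had a median of 0.003. A single copy has 1922 bases, nearer to Bmp4, and Nog was not fitted at that length, so its value of 0.35 is uncertain.

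**Figure D3:**
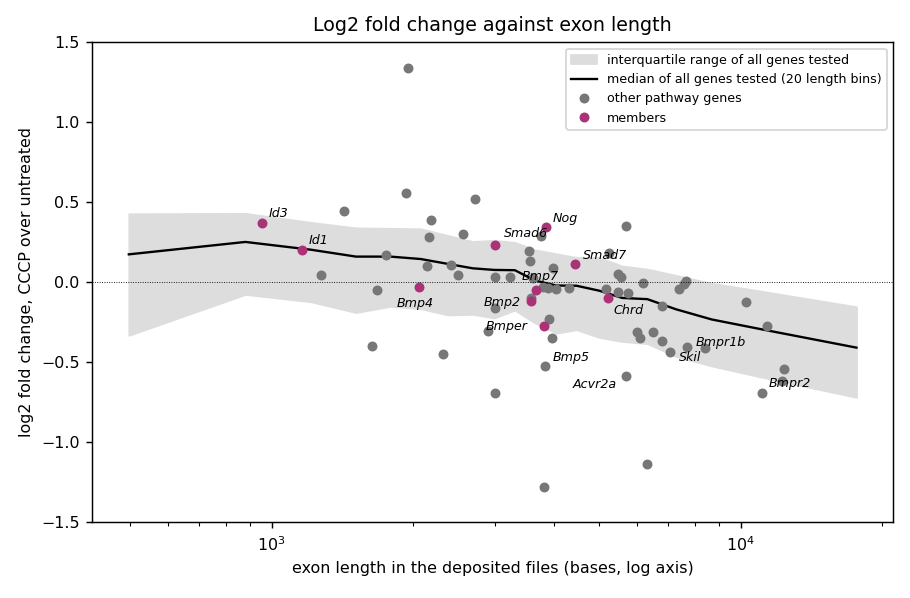
Log2 fold change of CCCP over untreated (vertical axis) against exon length in bases (horizontal log axis) for the 10 genes (purple) and other BMP pathway genes (grey), with the median and the interquartile range of all genes tested in length bins. Id1 and Id3 lie near the median of short genes, and Bmpr2, at 11087 bases, lies below the median of long genes. Nog is drawn at its deposited length of 3844 bases, which adds both copies.

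The stretches upstream of Id3 and Bmper are shown because these genes had the highest and lowest log2 fold change of the 10. Of the 10 genes, 5 were searched, with windows from a RefSeq promoter table of the same build (GRCm38.p6): Bmp4, Chrd, Bmper, Smad6 and Id3. The other members were not searched, so nothing is said here of their upstream stretches. Each sequence is the 250 bases before the transcription start given in that table, written 5′ to 3′ on the strand of the gene, at chr4:136143572-136143821 (plus strand) for Id3 and chr9:23222826-23223075 (plus strand) for Bmper. Capitals mark GTCT or its reverse complement AGAC, the short box that Smad proteins bind.
Id3: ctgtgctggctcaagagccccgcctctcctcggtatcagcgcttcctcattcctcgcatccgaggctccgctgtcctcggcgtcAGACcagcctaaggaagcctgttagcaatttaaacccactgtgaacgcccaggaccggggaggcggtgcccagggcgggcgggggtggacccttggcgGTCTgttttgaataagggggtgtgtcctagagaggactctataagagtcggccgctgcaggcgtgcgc
Bmper: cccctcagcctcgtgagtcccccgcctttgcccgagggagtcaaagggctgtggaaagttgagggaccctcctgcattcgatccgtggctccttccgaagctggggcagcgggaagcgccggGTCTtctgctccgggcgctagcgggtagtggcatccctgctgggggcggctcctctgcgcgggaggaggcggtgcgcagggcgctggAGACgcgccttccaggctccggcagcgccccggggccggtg

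Both stretches hold 2 Smad boxes on either strand, and Bmp4, Smad6 and Chrd hold 1 each. The box is common, being found in 82.9% of the 32817 upstream windows of the same length. The GC-rich element GGCGCC was found in the window of Chrd and not in the other 4 windows, and 9.59% of all windows hold it. The Chrd window (chr16:20732877-20733126, plus strand) lies before the start in the RefSeq table but inside the span over which Chrd was counted, which begins at 20731425. The Smad6 window (chr9:64022060-64022309, minus strand) overlaps the end of its counted span, at 64022085. The pair known from BMP-responsive enhancers, GGCGCC followed after 5 bases by GTCT, was searched on both strands. It was in none of the 5 windows and in 0.0701% of all windows. The 2 genes at the ends of the range of fold changes held the same number of boxes in these windows. Neither gene passed the test between the groups, and a part of the boxes in their levels was not tested.

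The other genes of the pathway were read from a list of 73 arranged by role, of which 70 passed the filter and 60 were not among the 10. None passed the adjusted threshold in edgeR. Of these 60 genes, 4 had both CCCP libraries above both untreated ones, against 24% of all genes. Both lay below for 12 of the 60, against 24.8% of all genes. At an unadjusted p under 0.05, 0 were higher and 5 were lower, or 5 of 60 against 9.16% of all genes. The median log2 fold change of the 70 genes was -0.04, against -0.01 for all genes tested. In each direction, the shares of the 60 without overlap or with an unadjusted p under 0.05 were thus no larger than those over all genes. By sign alone, 36 of the 60 had a negative log2 fold change, as did 10086 of all 19837 genes tested.

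The 12 receptors and co-receptors lay mostly on the lower side. Of these, 11 had a negative log2 fold change, as did 10086 of all 19837 genes tested. Both CCCP libraries lay below both untreated ones for 6 of the 12, against 24.8% of all genes, and 3 were lower at an unadjusted p under 0.05, against 9.16%. Bmpr2 (chr1:59764279-59878081, plus strand), which encodes the BMP type II receptor, had the smallest p-value of the list. Its levels were 200.1 and 168.0 CPM untreated and 111 and 118 CPM with CCCP. The fold was 0.620 with a 95% interval from 0.496 to 0.776 (edgeR unadjusted p = 0.0019, adjusted p = 0.166). Acvr2a (chr2:48814109-48903264, plus strand), another type II receptor, stood at 86.4 and 75.3 CPM untreated and at 52.4 and 55.7 CPM with CCCP, a fold of 0.668 (edgeR adjusted p = 0.186). DESeq2 called both as lower, with adjusted p-values of 0.0040 and 0.027, where it called 2.99% of all genes with an adjusted p-value as lower. It called no other gene of the 70.

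The type I receptor gene Bmpr1b (chr3:141837135-142169585, minus strand) stood at 23.8 and 23.5 CPM untreated and at 16.2 and 19.5 CPM with CCCP, a fold of 0.754 (edgeR adjusted p = 0.341). The other 3 receptor genes whose groups did not overlap were Bmpr1a, Acvr2b and the co-receptor gene Rgma, named after their values were seen, with log2 fold changes of -0.31, -0.27 and -0.23. Neo1, a co-receptor with the highest level per length of the class, was at 310 ± 15.2 CPM untreated and 308 ± 10.9 CPM with CCCP (SD, n = 2). The receptors have long exons, with a median of 5952 bases against 3467 over all genes tested. Genes of the length of Bmpr2 (11087 bases) had a median log2 fold change of -0.27, those near Bmpr1b had -0.18 and those near Acvr2a -0.10. With the length trend removed, the log2 fold change was -0.40 for Bmpr2, -0.48 for Acvr2a and -0.22 for Bmpr1b, against -0.69, -0.58 and -0.41 with it, and the median of the class moved from -0.16 to -0.07. The number of receptors with a positive log2 fold change then went from 1 to 4 of 12.

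**Figure D4:**
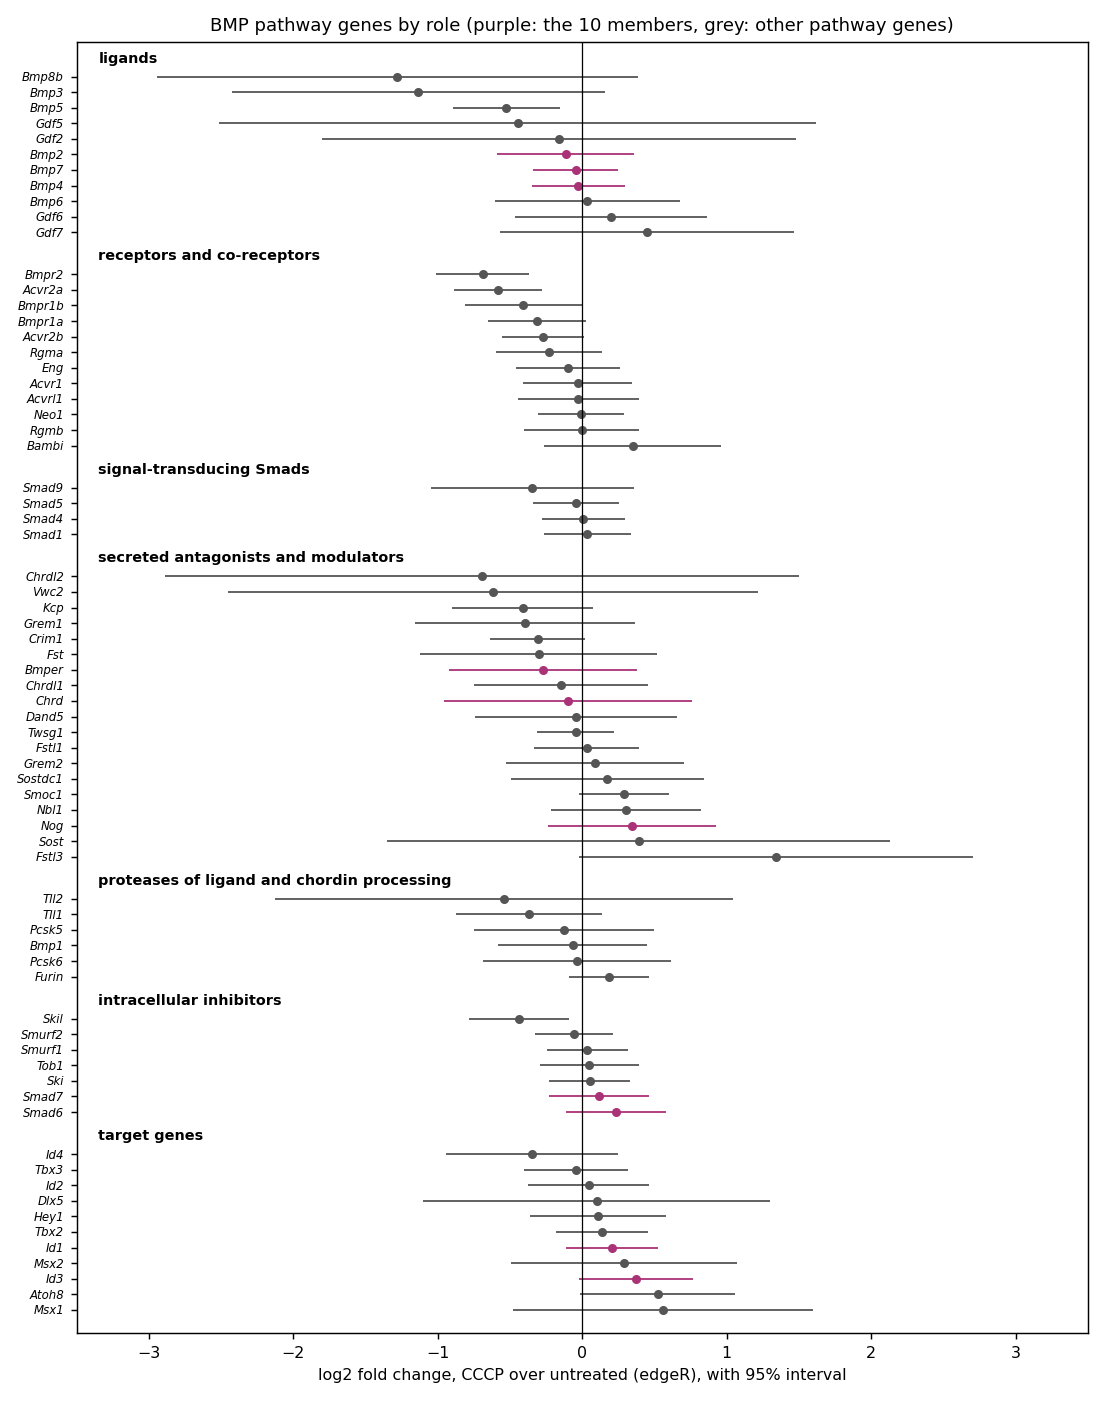
Log2 fold change of CCCP over untreated with its 95% interval from edgeR (horizontal axis) for the 70 pathway genes tested, grouped by role, with the 10 members in purple. Bmpr2 (-0.69) and Acvr2a (-0.58) lie lowest among the receptors. Of the 11 target genes, 9 lie above 0, as do 9751 of all 19837 genes tested.

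Among the ligands that were not members, 8 of 10 were tested. Bmp5 (chr9:75775365-75900316, plus strand), a ligand of the same subgroup as Bmp7, stood at 28.5 and 26.7 CPM untreated and at 18.0 and 20.3 CPM with CCCP. Its groups did not overlap, in contrast to those of Bmp4 and Bmp7, although a difference between these genes was not tested. The fold was 0.695 with a 95% interval from 0.538 to 0.897 (edgeR unadjusted p = 0.013, adjusted p = 0.250). Genes of its length, 3827 bases, had a median log2 fold change of -0.001, and with the length trend removed Bmp5 stood at -0.52, as with it. Bmp8b, named after its values were seen, also lay lower in both CCCP libraries, at under 1 CPM in all 4 libraries.

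None of the 4 signal-transducing Smads had an unadjusted p under 0.05. Smad5, which carries the signal from the receptors to the nucleus, was at 237 ± 20.7 CPM untreated and 230 ± 2.93 CPM with CCCP (SD, n = 2), a fold of 0.971 with a 95% interval from 0.788 to 1.20. The groups of all 4 genes of this class overlapped. Among the antagonists that were not members, Fstl1, a follistatin-like secreted protein with the highest level per length of the class, had a fold of 1.02 (95% interval from 0.793 to 1.31). Of the 16 such antagonists tested, Smoc1 and Fstl3 lay higher without overlap (2 of 16, against 24% of all genes). Crim1 and Kcp lay lower without overlap (2 of 16, against 24.8%). These genes were named after their values were seen, with edgeR adjusted p-values of 0.362, 0.345, 0.362 and 0.396 in that order. Fstl3 was counted with only 13 to 37 reads per library, at 0.260 to 1.02 CPM. Bmp1, the protease that cleaves chordin, had a fold of 0.955 (95% interval from 0.668 to 1.37). Of the 6 proteases, 5 had a negative log2 fold change, as did 10086 of all 19837 genes tested. Furin lay higher without overlap (1 of 6, against 24% of all genes) and Tll1 lower (1 of 6, against 24.8%). Both were named after their values were seen, with edgeR adjusted p-values of 0.483 and 0.447.

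Of the intracellular inhibitors outside the 10, Skil (chr3:31095058-31122923, plus strand), a corepressor of Smad complexes, stood at 128 and 120 CPM untreated and at 81.6 and 101 CPM with CCCP. Its fold was 0.740 (edgeR unadjusted p = 0.022, adjusted p = 0.278). Genes of its length, 7066 bases, had a median log2 fold change of -0.16, and with the length trend removed Skil stood at -0.27 against -0.43 with it. Ski, a related corepressor, had a fold of 1.04 with an interval from 0.853 to 1.26. Of the 7 genes of this class, Smad6 and Smad7 were the ones with a log2 fold change above 0.10.

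Among the 11 target genes, 9 had a positive log2 fold change, as did 9751 of all 19837 genes tested. For 3 of them (Id1, Id3 and Atoh8) both CCCP levels exceeded both untreated levels, 27.3% against 24% of all genes. Atoh8, named after its values were seen, is a transcription factor known to respond to BMP in endothelium. It stood at 6.69 and 8.64 CPM untreated and at 11.0 and 11.0 CPM with CCCP (edgeR adjusted p = 0.347). Id2, which had the highest level per length among the other targets, stood at 88.2 and 122 CPM untreated and at 106 and 111 CPM with CCCP, so its groups overlapped, and as with Id1 and Id3 untreated replicate 1 was the lowest library. The median log2 fold change of the class was 0.14, and 0.04 with the length trend removed, where 8 of the 11 were positive.

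Replicates of a group also differed. For 4 of the 10 members, replicate 1 differed from replicate 2 in the same direction in both groups, and for 48 of the 70 pathway genes (68.6%), against 64.2% of all genes tested. The median size of the log2 difference between replicates of a group was 0.16 for the 10 genes, 0.25 for the 70 and 0.24 for all genes. No label says what a replicate number marks.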

How the data were processed

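The authors deposited raw counts of reads per gene, 1 library per file. Per the file headers they were made with featureCounts 2.0.3 on exons of the mm10 RefSeq annotation, with neither a strand setting nor one to count pairs as fragments. HISAT2, SAMtools and FastQC are named without roles or versions in the submitters' processing notes. The library kit was directional per the labels' protocols, but without that setting reads over genes on opposite strands were not separated. No row lacked a gene name. The column header of untreated replicate 1 differs from its title by a letter.

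The counts were tested as deposited with edgeR 4.0.16 (R 4.3.3; quasi-likelihood test, TMM scaling, filterByExpr with minimum count 10 and minimum total 15, group as the sole term), two-sided, over all 19837 genes passing the filter, adjusted by Benjamini-Hochberg (threshold 0.05). Standard errors were the log2 fold change divided by the root of F, and 95% intervals used the fit's degrees of freedom. CPM and RPKM were derived here from TMM-scaled library sizes. An exact two-sided permutation test of 1 gene cannot go below p = 0.333 in this design, so none is given. The floor of 3 counts corresponds to 0.0599 to 0.0827 CPM, and covers counting error only.

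The alternatives were no filter beyond a total of 1 count, RLE scaling, total counts, DESeq2 1.42.0, the replicate number as a block, the exon length trend (lowess per library) removed, both together, and each library left out. The 10 members, the pathway list, its roles and the marker lists were chosen with earlier results of these data known. Named beside the members were the gene of highest mean RPKM in each role and those with no overlap and an unadjusted p under 0.05. Promoter sequences are from RefSeq (GRCm38.p6).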

Additional observations from a re-analysis of the deposited data

How the results depend on the processing

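No member passed an adjusted p of 0.05 in any of the 11 other fits, where their adjusted p-values ran from 0.061 (Id3 with the replicate block) to 0.994. Bmp2, Nog, Smad6, Id1 and Id3 kept their direction in all 11. Leaving out 1 library gave log2 fold changes from -0.13 to 0.083 for Bmp4, -0.117 to 0.038 for Bmp7, -0.642 to 0.032 for Bmper, -0.445 to 0.417 for Chrd and -0.013 to 0.242 for Smad7. The median of the pathway list ran from -0.066 to 0.026 there, and was -0.097 with total counts only, where the median of all genes was -0.066.

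The number of genes called was 0 with RLE scaling, total counts and the length trend removed. It was 1107 without a filter and 594 in DESeq2, both including Bmpr2 and Acvr2a and no other pathway gene, and 10 to 46 with 1 library left out, none in the pathway. Without a filter, the 2 pathway genes called stand against 3.43% of all genes. In DESeq2 they stand against 3.32% of genes with an adjusted p-value. With the replicate block the number called was 2118 (10.7% of genes). These held 5 of the 70 pathway genes (Bmp3, Bmp5, Bmpr2, Acvr2a and Skil, all lower). With the replicate block and the length trend removed the number was 1242 (6.26%), with Bmp5, Bmpr2 and Acvr2a, and Chrd turned to 0.0083. The cause was not tested. Same-numbered libraries deviated together (correlation 0.36 over all genes), but 2 numbers are too few to treat as a pairing.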
